A study of Mus musculus with 8 samples.

Results

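The replication-dependent histone genes are the clustered genes that supply the bulk of the H1, H2A, H2B, H3 and H4 proteins. They were taken as every gene of the count table whose symbol begins with Hist1h, Hist2h, Hist3h or Hist4h, with the 1 symbol marked as a pseudogene by the ending -ps left out. This gave 65 of 26930 genes, 6 of them H1, 18 H2A, 17 H2B, 11 H3 and 13 H4 genes. The rule used names only and no measured value. Of the 65 genes, 57 passed the filter on low counts and were tested (6, 14, 14, 10 and 13 in the same order), and 2, Hist1h2ao and Hist1h2br, had no count in any library.

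The RNA came from cultures started as mouse embryonic fibroblasts and collected 8 days into their reprogramming toward pluripotency, driven in every group by the OKSM factors (Oct4, Klf4, Sox2 and Myc) in a medium the labels call AGi. The 4 groups of 2 libraries each were K36M cells with 2.5 ng/ml TGF-beta1, K36M cells with 250 nM Repsox, WT cells with 2.5 ng/ml TGF-beta1, and WT cells with 250 nM Repsox. K36M is a histone H3 with methionine in place of the lysine that carries the H3K36 methylation, WT libraries are also labelled H3, and Repsox inhibits the TGF-beta type I receptor. How K36M and the OKSM factors were expressed is not given in the sources used here. No group without either agent was used here, so an effect of TGF-beta cannot be told apart from one of Repsox. Whether replicates were separate cultures is not labelled, so the tests cover variation among libraries that could be purely technical.

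Cells make the replication-dependent histones during S phase, when new DNA has to be packed. Their genes lack introns for the most part, and their messenger RNAs usually end, instead of in a poly(A) tail, in a short stem-loop. The stem-loop binding protein SLBP holds it, and U7 snRNP acts in the cleavage that forms this end. NPAT, a target of cyclin E and CDK2, drives their transcription, and the messages are degraded when DNA synthesis stops. H2A, H2B, H3 and H4 form the nucleosome core, and H1 binds the linker DNA between nucleosomes.

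The stem-loop is shown for 5 genes, 1 of each class, because it is a feature by which these messages are processed and it was not used to choose them. The sequences run 5′ to 3′ on the coding strand of mm9, and capitals mark the 16 bases of the stem-loop, whose coordinates are given:

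Hist1h1e, chr13:23713651-23713666, minus strand: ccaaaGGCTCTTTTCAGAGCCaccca
Hist1h2ak, chr13:21845251-21845266, minus strand: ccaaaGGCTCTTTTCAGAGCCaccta
Hist1h2bm, chr13:21814375-21814390, plus strand: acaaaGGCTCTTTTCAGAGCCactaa
Hist1h3e, chr13:23653772-23653787, minus strand: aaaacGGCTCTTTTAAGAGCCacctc
Hist1h4d, chr13:23673819-23673834, plus strand: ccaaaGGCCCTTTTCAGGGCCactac

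The histone stem-loop, searched as GG, any 2 bases, CTTTT, any base, A, any 3 bases and CC on the coding strand within 150 bases after the stop codon, was found in 55 of the 63 members with an annotated stop codon (87.3%), and in 10 of 21866 other protein-coding genes of GENCODE vM1 (0.0457%). In all 55 the 6 base pairs of the stem were complementary, and the match began 21 to 55 bases after the stop codon, with a median of 31. The search letters themselves set the outer G and C pairs and the T and A pair next to the loop. Only the pairs between these were free to differ. The search also set GG and CT in every spelling of the stem. The stem was spelled GGCTCT in all 43 matched H1, H2A, H2B and H3 genes, whereas the 12 matched H4 genes had GGCCCT (10 genes) or GGTCCT (2 genes). Of the 10 other protein-coding genes with a match, 3 are histone genes of the same family not analysed here (Hist2h2aa1, Hist2h2aa2 and Hist2h3b). Another is H2afx, the histone variant that marks DNA breaks. No match was found in Hist1h2al, Hist1h2an, Hist1h2bp, Hist1h2br, Hist2h2bb, Hist2h2be, Hist1h3g and Hist1h4a, and Hist1h2aj and Hist2h3c2, annotated as pseudogenes, had no stop codon to search from.

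The promoters are shown for 3 genes, an H1, an H2B and an H4 gene that moved together in these libraries although their classes differ in promoter letters. Each is the 150 bases before the RefSeq start on GRCm38.p6, and capitals mark 4 motifs. These are the H1 box, spelled AAACACA, and the octamer, spelled ATTTGCAT. The others are the CCAAT box, which reads ATTGG when it lies on the opposite strand of the DNA, and the TATA box, searched here as the letters TATAAA:

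Hist1h1e, chr13:23622559-23622708, minus strand: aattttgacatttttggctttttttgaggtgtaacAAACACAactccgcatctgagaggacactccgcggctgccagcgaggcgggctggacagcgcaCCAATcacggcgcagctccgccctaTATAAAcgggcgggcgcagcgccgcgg
Hist1h2bm, chr13:21721894-21722043, plus strand: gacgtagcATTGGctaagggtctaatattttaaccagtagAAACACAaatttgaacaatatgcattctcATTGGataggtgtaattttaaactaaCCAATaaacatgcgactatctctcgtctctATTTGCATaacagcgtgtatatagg
Hist1h4d, chr13:23581418-23581567, plus strand: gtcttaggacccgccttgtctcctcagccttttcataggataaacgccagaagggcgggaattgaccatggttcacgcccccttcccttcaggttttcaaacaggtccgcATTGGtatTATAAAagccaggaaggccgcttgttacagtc

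Each motif was searched on both strands of windows from 250 bases before to 50 after the start, which 57 of the 65 members had. CCAAT was in 48 of these 57 windows (84.2%) and in 37.3% of 32793 other windows. It was in every H1, H2A, H2B and H3 window (6, 15, 15 and 9) and in 3 of 12 H4 windows. The H1 box was in 5 of 6 H1 windows (83.3%), 2 of 15 H2A windows, 2 of 15 H2B windows, 0 of the H3 and H4 windows, and in 7.17% of the others. The octamer was in 7 of 15 H2A and 6 of 15 H2B windows, in 0 of the H1, H3 and H4 windows, and in 1.70% of the others. TATAAA was in 34 of the 57 windows (59.6%) and in 13.5% of the others. Hist1h2bm, shown above, is among the 2 H2B windows with the H1 box, and Hist1h4d among the 3 H4 windows with CCAAT. In those letters the printed genes are thus not typical of their classes. A match says only that these letters stand in the window.

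On mm9, 54 members lie in a pair of blocks on chromosome 13, 23 between 21807632 and 22135545 and 31 between 23622919 and 24026720. Hist1h2al lies alone on that chromosome (chr13:51298057-51298434). Chromosome 3 holds 7 Hist2 genes (96023839 to 96082924), chromosome 11 the 2 Hist3 genes (58762413 to 58770176) and chromosome 6 Hist4h4 (136752589 to 136752900). Many members are near-identical copies. The median share of a member's 50-base stretches that occur once in the genome was 53.0%, and it ran from 97.7% for H1 to 39.6% for H2A. The read length and the handling of reads with several matches are not given in the sources used here, so the part of read assignment in a difference within a class was not tested.

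The libraries held 10928302 to 15594217 counts, and levels are CPM, the usual scaling of counts to library size, on TMM-scaled sizes. Of the macrophage and blood markers, 3 of 4 were in the table and summed to 34.1 and 38.8 CPM in K36M under TGF-beta, 78.6 and 76.2 in K36M under Repsox, 16.2 and 16.9 in WT under TGF-beta, and 23.6 and 22.3 in WT under Repsox, with the defining leukocyte gene Ptprc at or below 0.262 CPM. Csf1r and Cd68, the other macrophage and blood markers in the table, were higher in K36M than in WT under Repsox, by log2 2.18 and 1.28. Csf1r had 727 and 586 counts in K36M under Repsox, against 172 and 124 in WT under Repsox. The 3 erythroid markers summed to at most 0.270 CPM. All 4 epithelial and all 4 pluripotency markers were higher and 5 of 6 fibroblast and mesenchymal markers lower in K36M than in WT under TGF-beta. Thy1, the remaining fibroblast marker, was higher in K36M. The fibroblast gene Vim stood there at 302 and 331 CPM in K36M, against 4845 and 5115 CPM in WT. The epithelial gene Cdh1 stood at 1110 and 1127 CPM in K36M, against 41.1 and 23.1 CPM in WT. In WT, TGF-beta against Repsox, all 4 epithelial and all 4 pluripotency markers were lower. Of the fibroblast and mesenchymal markers, 3 were higher there and 3, among them Thy1, lower. The genotypes also differed under Repsox, where all 6 fibroblast and mesenchymal markers were lower in K36M, with Thy1 at log2 -5.26 and Vim at -4.19. All 4 epithelial markers were higher in K36M under Repsox, with Cdh1 at log2 1.01. Of the pluripotency markers, Zfp42, Tdgf1 and Sall4 were higher and Nanog was not called. The part of these differences in cell type in the histone values was not tested. Fewer S-phase cells and less histone RNA per cell cannot be told apart in bulk RNA.

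Histone RNA was lowest in WT cells under TGF-beta and highest in K36M cells under TGF-beta. The 65 members took 0.547 and 0.536% of all counts in K36M under TGF-beta, 0.390 and 0.381% in K36M under Repsox, 0.0913 and 0.0790% in WT under TGF-beta, and 0.385 and 0.413% in WT under Repsox. The summed level was 5231 ± 162 CPM in K36M under TGF-beta, 3759 ± 102 in K36M under Repsox, 944 ± 83.7 in WT under TGF-beta and 3825 ± 113 in WT under Repsox (SD, n = 2 each). The sums of the 2 Repsox groups overlapped between genotypes, those under TGF-beta differed 5.54-fold, and within WT the sum was 4.05-fold lower under TGF-beta.

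**Figure D1:**
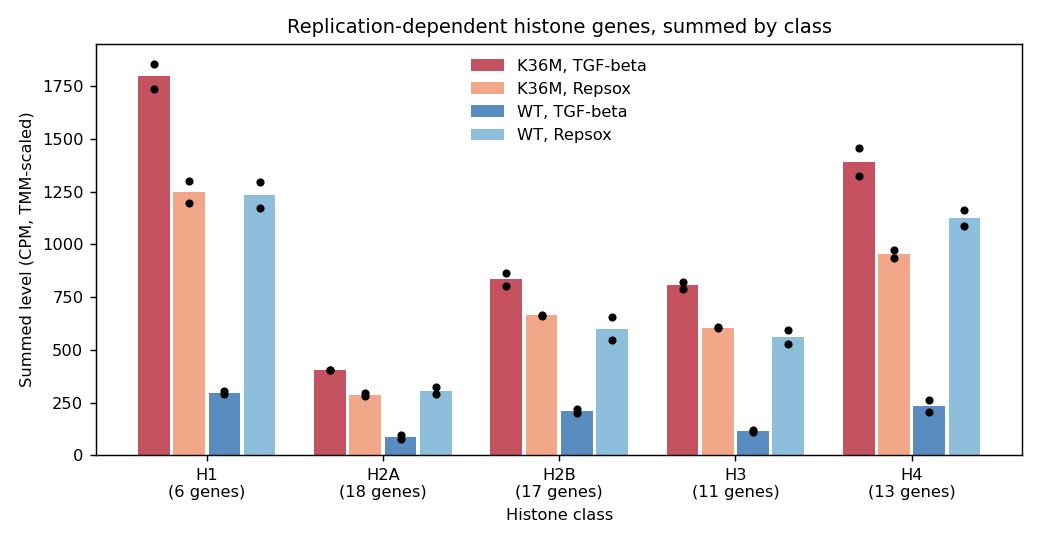
Summed CPM of the members of each histone class (TMM-scaled) in the 4 groups; bars are means and points are the 2 libraries of a group. In every class WT under TGF-beta is the lowest group and K36M under TGF-beta the highest, with H1 at 1857 and 1738 CPM in K36M under TGF-beta and at 303 and 289 CPM in WT under TGF-beta.

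Every class had this order, to a different degree. H3 was 6.92-fold higher in K36M than in WT under TGF-beta, H1 6.07-fold, H4 5.94-fold, H2A 4.56-fold and H2B 4-fold. Within WT, TGF-beta samples were lower than Repsox samples by 4.81-fold for H3, 4.8-fold for H4, 4.17-fold for H1, 3.47-fold for H2A and 2.87-fold for H2B. H1, the linker histone class, supplied the largest share of member CPM, not scaled for length, in each of the 8 libraries, 30.0 to 34.7%. H2B supplied 21.7 and 22.5% in WT under TGF-beta, above the 14.5 to 18.1% of the other 6 libraries, and H3 12.2 and 12.5%, below the 14.1 to 16.5% of the others.

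A single gene, Hist1h2bc, carried most of this shift of H2B. It made up 43.1 and 47.6% of the H2B sum in WT under TGF-beta and 10.6 to 12.4% in the other 6 libraries. Without it, as an alternative chosen after its values were seen, the H2B sum was 736 ± 39.4 CPM in K36M under TGF-beta, 584 ± 8.46 in K36M under Repsox, 114 ± 13.8 in WT under TGF-beta and 535 ± 70.8 in WT under Repsox. The H2B sum was then 6.45-fold higher in K36M than in WT under TGF-beta and 4.68-fold lower under TGF-beta than under Repsox in WT.

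Comparing K36M with WT under TGF-beta asks how the mutant cells differ while the pathway is stimulated. Of the 57 tested members, 50 were higher and 3 lower in K36M and 4 were not called (edgeR's quasi-likelihood test, Benjamini-Hochberg adjusted p below 0.05 over all tested genes; fold changes are given ± their standard error). Over all 15789 tested genes 36.4% were called higher and 33.9% lower, together 70.3%, and the median log2 fold change was 0.05, against 2.54 for the members. All 6 H1 genes, 11 of 14 H2A, 12 of 14 H2B, 9 of 10 H3 and 12 of 13 H4 genes were higher. All 50 were at least 2-fold higher, and 39 of them at least 4-fold. No overlap between K36M and WT libraries was seen in 55 of the 57, and in 85.2% of all genes.

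**Figure D2:**
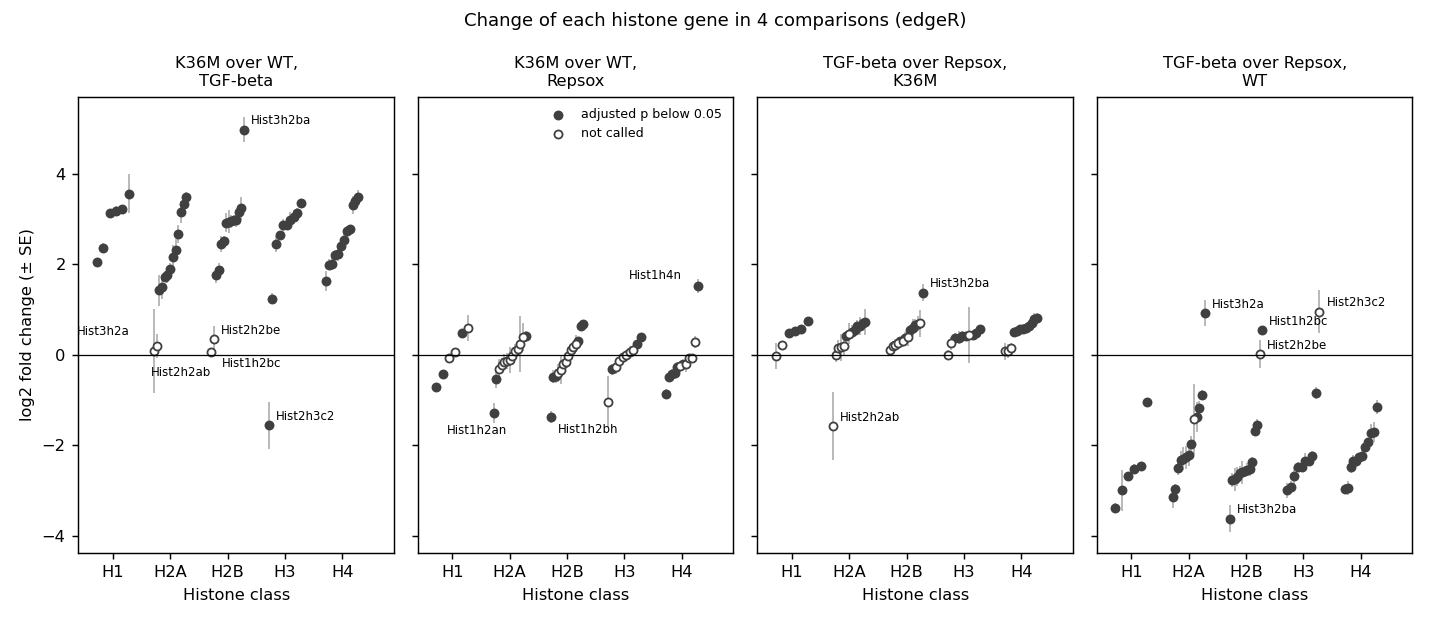
Log2 fold change of each tested member with its standard error, by class, for K36M over WT under TGF-beta, K36M over WT under Repsox, TGF-beta over Repsox in K36M and TGF-beta over Repsox in WT; filled points have adjusted p below 0.05 and open points were not called. Nearly all members stand above 0 in the first panel and below 0 in the last, while the middle panels lie near 0. Hist1h4m, with 1 count in the 4 K36M libraries, and Hist1h2al, with 0, are not drawn.

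Hist1h1e, which encodes the somatic linker histone H1.4, followed the module closely. It stood at 407 and 382 CPM in K36M under TGF-beta, 243 and 227 in K36M under Repsox, 46.6 and 43.4 in WT under TGF-beta, and 253 and 243 in WT under Repsox. The 2 WT libraries under TGF-beta lay far below the other 6, and the Repsox libraries of both genotypes overlapped. It was 8.78-fold higher in K36M than in WT under TGF-beta (log2 3.13 ± 0.08, adjusted p = 7.24e-19). Under Repsox the genotypes differed by log2 -0.08 ± 0.07 (adjusted p = 0.381).

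Hist1h1c, the gene of linker histone H1.2, had the highest mean CPM of the members over the 8 libraries, not scaled for length. It had 708 and 610 CPM in K36M under TGF-beta, 478 and 436 in K36M under Repsox, 155 and 162 in WT under TGF-beta, and 344 and 307 in WT under Repsox. Its 4 groups did not overlap. It had the smallest change of the H1 genes, log2 2.05 ± 0.08 for K36M over WT under TGF-beta (adjusted p = 7.44e-16) and -1.04 ± 0.08 for TGF-beta over Repsox in WT (adjusted p = 1.37e-10). It was also 1.40-fold higher in K36M than in WT under Repsox (log2 0.49 ± 0.08, adjusted p = 1.49e-05), where 3 of the 6 H1 genes were not called.

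Hist1h1a and Hist1h1b, which encode H1.1 and H1.5, were the H1 genes that were lower in K36M under Repsox. Hist1h1a stood at 204 and 180 CPM in K36M under TGF-beta, 173 and 159 in K36M under Repsox, 22.3 and 20.2 in WT under TGF-beta, and 241 and 204 in WT under Repsox. Hist1h1b stood at 137 and 133, 94.6 and 88.4, 30.4 and 22.2, and 151 and 150 CPM in those groups. Their log2 fold changes for K36M over WT under Repsox were -0.42 ± 0.09 and -0.72 ± 0.10 (adjusted p = 0.000377 and 1.92e-06). Under TGF-beta both were higher in K36M, by log2 3.18 ± 0.11 and 2.37 ± 0.11.

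Hist1h1d, the gene of H1.3, had 395 and 430 CPM in K36M under TGF-beta, 308 and 283 in K36M under Repsox, 47.9 and 40.8 in WT under TGF-beta, and 304 and 264 in WT under Repsox. It resembled Hist1h1e, with log2 3.22 ± 0.10 for K36M over WT under TGF-beta and 0.06 ± 0.08 under Repsox (adjusted p = 0.595). Hist1h1t, the testis linker histone, was read at low levels, 5.94 and 4.46 CPM in K36M under TGF-beta, 5.07 and 5.55 in K36M under Repsox, 0.689 and 0.215 in WT under TGF-beta, and 3.44 and 3.63 in WT under Repsox. It was higher in K36M under TGF-beta (log2 3.56 ± 0.43, adjusted p = 1.47e-07; 4.53 without WT TGF-beta replicate 1 and 2.90 without replicate 2). Of the other testis histone genes, Hist1h2aa had counts in 1 library only and Hist1h2ba in 3, and neither was tested.

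**Figure D3:**
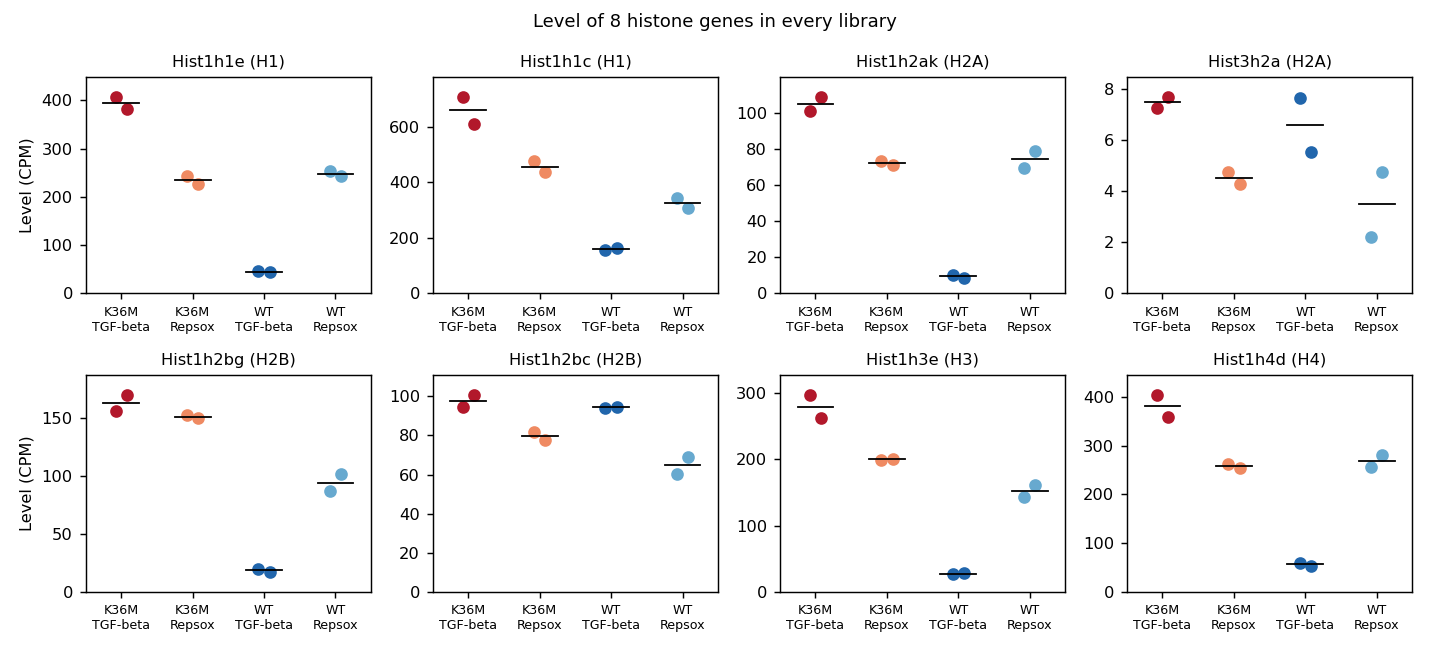
CPM (TMM-scaled) of 8 members in each library, with a line at the mean of each group; each panel has its own axis from 0. In 6 of the panels WT under TGF-beta is the lowest group. Hist1h2bc stands at 94.0 and 94.8 CPM there, just below K36M under TGF-beta, and Hist3h2a at 7.66 and 5.53 CPM, above both Repsox groups.

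Among the H2A genes, Hist1h2ak and Hist1h2ae showed large differences and Hist1h2ab and Hist1h2ac smaller ones. Hist1h2ak had 101 and 109 CPM in K36M under TGF-beta, 73.3 and 71.1 in K36M under Repsox, 10.2 and 8.69 in WT under TGF-beta, and 69.6 and 78.9 in WT under Repsox, and the log2 fold change for K36M over WT under TGF-beta was 3.48 ± 0.11. Hist1h2ab had 94.5 and 87.9, 59.2 and 53.4, 30.0 and 25.6, and 50.8 and 52.2 CPM in those groups, with log2 1.72 ± 0.10. In both genes WT under TGF-beta was the lowest group without overlap. Hist1h2ac, with 54.5 and 48.3 CPM in K36M under TGF-beta against 17 and 11.1 CPM in WT under TGF-beta, gave log2 1.89 ± 0.15 for K36M over WT. Hist1h2ae, with 48.2 and 42.8 CPM in K36M under TGF-beta against 4.56 and 4.52 CPM in WT under TGF-beta, gave 3.32 ± 0.15.

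Hist3h2a, an H2A gene of chromosome 11, went the other way within WT. It stood at 7.27 and 7.69 CPM in K36M under TGF-beta, 4.74 and 4.26 in K36M under Repsox, 7.66 and 5.53 in WT under TGF-beta, and 2.22 and 4.76 in WT under Repsox. The TGF-beta libraries of both genotypes lay above the Repsox libraries, and the genotypes overlapped under TGF-beta. TGF-beta exceeded Repsox by log2 0.92 ± 0.29 in WT (adjusted p = 0.00943; 0.190 without WT Repsox replicate 1 and 0.102 without WT TGF-beta replicate 1) and by 0.73 ± 0.28 in K36M (adjusted p = 0.0380). In K36M the call was lost without either library of either group (adjusted p 0.0821 to 0.142) and with DESeq2 (0.0881). Its neighbour Hist3h2ba, an H2B gene that was chosen after its values were seen, had the largest increase of any tested member in K36M over WT under TGF-beta, at 25.2 and 27.1 CPM against 0.603 and 1.01 CPM (log2 4.98 ± 0.27, adjusted p = 2.13e-13).

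H2B held both large members that fell with the module and Hist1h2bc, which did not. Hist1h2bg stood at 156 and 170 CPM in K36M under TGF-beta, 153 and 150 in K36M under Repsox, 19.8 and 16.9 in WT under TGF-beta, and 86.6 and 102 in WT under Repsox. Hist1h2bc stood at 94.8 and 101, 81.6 and 77.5, 94.0 and 94.8, and 60.2 and 69.2 CPM in those groups. WT under TGF-beta was thus the lowest group for Hist1h2bg and above both Repsox groups for Hist1h2bc. Per kilobase of exon, Hist1h2bc had a mean level just below that of the leading member, Hist1h4d, in WT under TGF-beta, 128 CPM per kilobase.

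Hist1h2bc was the only H2B gene called higher under TGF-beta than under Repsox in WT, by log2 0.55 ± 0.09 (adjusted p = 1.2e-05). For K36M over WT under TGF-beta it gave log2 0.05 ± 0.09 (adjusted p = 0.625; called higher, at log2 0.25, when libraries were scaled by total counts). Hist1h2bg gave 3.16 ± 0.11 in that comparison (adjusted p = 5.5e-17). Hist1h2bm, whose promoter is shown above, had 97 and 110 CPM in K36M under TGF-beta, against 15.3 and 11.3 CPM in WT under TGF-beta (log2 2.97 ± 0.13), and Hist1h2bb had 145 and 154 against 26.8 and 25.4 CPM (log2 2.52 ± 0.11).

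The H3 genes, which encode the H3.1 and H3.2 proteins, included Hist1h3e with the highest mean CPM. It stood at 297 and 262 CPM in K36M under TGF-beta, 199 and 201 in K36M under Repsox, 26.6 and 27.9 in WT under TGF-beta, and 143 and 161 in WT under Repsox. No groups overlapped, and the log2 fold change for K36M over WT was 3.36 ± 0.10 under TGF-beta and 0.40 ± 0.08 under Repsox (adjusted p = 2.67e-18 and 0.000298). Hist1h3c, Hist1h3f and Hist1h3d followed with log2 3.12 ± 0.11, 2.64 ± 0.10 and 2.87 ± 0.12 under TGF-beta. Whether reads of a mutant H3 copy were counted as any H3 gene is not recorded in the sources used here.

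Hist1h3g, an H3 gene without the stem-loop letters, had 38.4 and 32.9 CPM in K36M under TGF-beta, 28.5 and 26.9 in K36M under Repsox, 4.73 and 3.95 in WT under TGF-beta, and 32.2 and 37.2 in WT under Repsox. It was the H3 gene called lower in K36M under Repsox (log2 -0.32 ± 0.12, adjusted p = 0.0323; not called with DESeq2, at 0.0940, nor without WT Repsox replicate 2, K36M Repsox replicate 1 or K36M Repsox replicate 2, at 0.2, 0.0730 and 0.170). Hist2h3c2, annotated as a pseudogene, stood at 0.860 and 0.874 CPM in K36M under TGF-beta, against 2.32 and 2.80 CPM in WT under TGF-beta. It was the only H3 gene lower in K36M there (log2 -1.56 ± 0.52, adjusted p = 0.0107; 0.0551 without K36M TGF-beta replicate 1 and 0.0731 without WT TGF-beta replicate 2).

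Hist1h4d had the highest level of all members per kilobase of exon in every group, with group means of 970 CPM per kilobase in K36M under TGF-beta, 656 in K36M under Repsox, 142 in WT under TGF-beta and 686 in WT under Repsox. In CPM it stood at 404 and 359 CPM in K36M under TGF-beta, 261 and 254 in K36M under Repsox, 59.4 and 52.6 in WT under TGF-beta, and 257 and 282 in WT under Repsox. The Repsox groups overlapped and WT under TGF-beta was lowest, with log2 2.77 ± 0.09 for K36M over WT under TGF-beta (adjusted p = 1.49e-17). Hist1h4h, with 225 and 198 CPM in K36M under TGF-beta against 41.8 and 37.9 CPM in WT, gave 2.41 ± 0.09. Hist1h4f, with 207 and 196 against 21.1 and 17.2 CPM, gave 3.40 ± 0.10, and Hist1h4c, with 120 and 112 against 24 and 16.1 CPM, gave 2.54 ± 0.13.

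Hist1h4m, the H4 gene named as a marker of this module, did not behave as the other H4 genes. It had 0 and 0 counts in K36M under TGF-beta, 0 and 1 in K36M under Repsox, 76 and 71 in WT under TGF-beta, and 247 and 352 in WT under Repsox. Its reads were therefore near absent from all 4 K36M libraries and present in all 4 WT libraries. It was at least 46.5-fold lower in K36M under TGF-beta, taking 3 counts over the group for the 0, and lower by a ratio of 589 under Repsox (exact 95% interval 105 to 23318, counting error only).

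Its nearest copy, Hist1h4n, went in the opposite direction. It had 508 and 455 counts in K36M under TGF-beta, 536 and 494 in K36M under Repsox, 64 and 37 in WT under TGF-beta, and 175 and 191 in WT under Repsox. Under both agents K36M was higher, by log2 3.31 ± 0.20 under TGF-beta and 1.52 ± 0.16 under Repsox (adjusted p = 1.18e-12 and 5.26e-08), and it was the only H4 gene called higher under Repsox. The 2 annotated transcripts are the same over 402 bases except G36A, which gives the Hist1h4m base first and counts from the annotated start of the transcript. The difference lies before the start codon, whose A is base 39. Bases 22 to 51 on mm9 are shown with that position in capitals:

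Hist1h4m, chr13:21903636-21903665, plus strand: acagttttgtcttcGtcatgtctggtcgtg
Hist1h4n, chr13:21924015-21924044, minus strand: acagttttgtcttcAtcatgtctggtcgtg

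Only 10.2% of the 50-base stretches of Hist1h4m and 7.09% of those of Hist1h4n occur once in the genome, so few reads of that length could tell them apart. The sum of both genes was 39.7 and 39.8 CPM in K36M under TGF-beta, 35.3 and 39.8 in K36M under Repsox, 12.1 and 7.75 in WT under TGF-beta, and 28.4 and 41.0 in WT under Repsox. The summed levels of K36M and WT overlapped under Repsox. Under TGF-beta the sum was higher in K36M, as for the other H4 genes. Whether the K36M and WT cells differ in sequence at these genes was not tested.

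**Figure D4:**
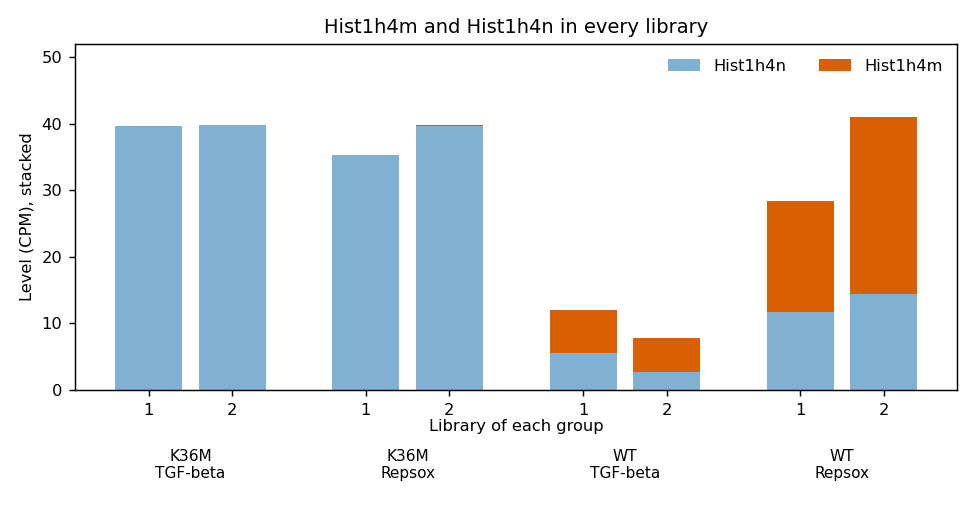
Level of Hist1h4n (lower part of each bar) and Hist1h4m (upper part) in each of the 8 libraries, stacked, in CPM. Hist1h4m is absent or at 0.0804 CPM in the 4 K36M libraries and at 5.10 to 26.6 CPM in the 4 WT libraries, while the full bars of both Repsox groups reach 28.4 to 41.0 CPM.

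Hist1h2al and Hist2h2bb were read in WT only. Hist1h2al had no count in the 4 K36M libraries (0 CPM), against 2.50 and 3.02 CPM in WT under TGF-beta and 10.9 and 14.3 CPM in WT under Repsox. It was at least 22.5-fold lower in K36M under TGF-beta, with 71 counts in the WT group, and at least 115-fold lower under Repsox, with 350. Of its 378 annotated bases, 376 matched the annotated exons of Hist2h3c1, which overlap those of Hist2h2aa1 on the same strand. Hist2h2bb, an H2B gene that the filter left out and that was chosen here after its values were seen, had no count in K36M, against 18 counts in the 2 WT libraries under TGF-beta and 9 in those under Repsox, at least 5.69-fold and 2.95-fold lower. Hist1h4m, Hist1h2al and Hist2h3c2 were the 3 members called lower in K36M under TGF-beta, and in each fewer than 50% of the 50-base stretches are unique. Without Hist1h4m, Hist1h4n and Hist1h2al, chosen after seeing the data, 1 member was lower there, by construction.

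Under Repsox, with the receptor inhibited, K36M and WT cells had overlapping sums of histone RNA, 3831 and 3687 CPM in K36M and 3745 and 3905 CPM in WT. Of 57 members 8 were higher and 16 lower in K36M and 33 were not called, against 28.8% and 26.9% of all genes called higher and lower. The median log2 fold change was -0.14 for the members and 0.04 for all genes. H4 was the class with most members lower, 7 of 13, and its summed level was 954 ± 29.8 CPM in K36M against 1124 ± 54.7 CPM in WT (SD, n = 2 each). The libraries did not overlap in 35 of the 57 members and in 75.4% of all genes. Without K36M Repsox replicate 1 or WT Repsox replicate 1, 5 members were higher, and over all 8 libraries left out in turn 5 to 10 were higher and 13 to 19 lower.

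Apart from Hist1h4m, Hist1h4n and Hist1h2al, 2 called members differed at least 2-fold under Repsox, and both have close copies. Hist1h2bh had 15.1 and 15.8 CPM in K36M under Repsox, against 35.2 and 45.2 CPM in WT under Repsox (log2 -1.38 ± 0.14, adjusted p = 1.6e-08), and Hist1h2an had 6.39 and 4.18 against 11.9 and 14.1 CPM (log2 -1.28 ± 0.22, adjusted p = 3.7e-05). The pair was chosen after the values were seen, did not overlap between genotypes, and had 40.8 and 14.2% of unique 50-base stretches. Among genes with mostly unique sequence, Hist2h4, an H4 gene of chromosome 3 chosen in the same way, had 50.8 and 47.5 CPM in K36M against 86.7 and 93.4 CPM in WT (log2 -0.87 ± 0.11, adjusted p = 4.83e-07). On the higher side stood Hist1h2bg and Hist1h2bb, with log2 0.68 ± 0.09 and 0.64 ± 0.10 (adjusted p = 1.41e-06 and 8.44e-06). Hist1h2ae, the only H2A gene called higher, gave 0.41 ± 0.12 (adjusted p = 0.00629; 0.0748 without WT Repsox replicate 1 and 0.0631 without K36M Repsox replicate 1).

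In WT cells, the comparison of TGF-beta with Repsox asks how histone RNA responds to stimulation against inhibition of the pathway. Of 57 members 52 were lower and 2 higher under TGF-beta, against 33.4% and 29.0% of all genes (62.4% in either direction), with a median log2 fold change of -2.34 for the members and -0.07 for all genes. All 6 H1 and all 13 H4 genes, 12 of 14 H2A, 12 of 14 H2B and 9 of 10 H3 genes were lower. The libraries did not overlap in 56 of the 57, against 79.4% of all genes. Without WT Repsox replicate 1 or WT TGF-beta replicate 1 the count of higher members was 1, and with each single library left out 52 members were lower.

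The decreases within WT ranged widely. Hist1h1e was 5.52-fold lower under TGF-beta (log2 -2.46 ± 0.08, adjusted p = 4.13e-17) and Hist1h1a 10.5-fold lower (log2 -3.39 ± 0.11), and Hist3h2ba was 12.3-fold lower, at 0.603 and 1.01 CPM against 8.29 and 12.2 CPM (log2 -3.62 ± 0.30). At the other end, Hist1h3b, with 22.7 and 19.4 CPM under TGF-beta and 33.1 and 42.5 under Repsox, was 1.8-fold lower, and Hist1h2ab 1.86-fold lower. The 3 members not called were Hist2h2ab, Hist2h2be and Hist2h3c2. Hist2h2be, an H2B gene without the stem-loop letters, had 3.44 and 2.94 CPM in WT under TGF-beta and 2.76 and 3.55 in WT under Repsox (log2 0.02 ± 0.31, adjusted p = 0.969).

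Some histone genes are known in differentiated human cells to yield polyadenylated messages as well, which are not tied to S phase. Of 8 genes listed for this, 6 were in the table and tested. In WT, TGF-beta against Repsox, 2 of the 6 were higher (Hist3h2a and Hist1h2bc), 3 lower (Hist1h1c, Hist1h2ac and Hist4h4) and 1 not called (Hist2h2be), with a median log2 fold change of -0.51. These counts are near the shares over all genes, 29.0% higher and 33.4% lower. Hist4h4, for example, stood at 7.14 and 3.59 CPM under TGF-beta and 17.3 and 17.9 CPM under Repsox (log2 -1.74 ± 0.22, adjusted p = 2.81e-07). The libraries were made by depletion of ribosomal RNA, which retains messages with and without a poly(A) tail, and gene counts do not separate these forms.

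The annotation gives a related view. Of the 50 tested members with a stem-loop match, 10 had at least 300 annotated exon bases past it, and their median log2 fold change for TGF-beta over Repsox in WT was -1.90, against -2.47 for the other 40. Hist3h2a (1487 bases past the stem-loop) and Hist1h2bc (313) had the highest values. Next came Hist1h3b (51 bases, log2 -0.84), Hist1h2ab (6 bases, -0.89) and Hist1h1c (839 bases, -1.04). Hist1h1d, with the longest stretch of 3050 bases, gave -2.68 ± 0.09, within the range of the rest. Spearman's correlation between the length past the stem-loop and the log2 fold change was 0.30 over these 50 genes, which share libraries and scaling. The limit of 300 bases was chosen after seeing the data, and the exons of Hist3h2a overlap those of another gene, Trim17, on the same strand.

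**Figure D5:**
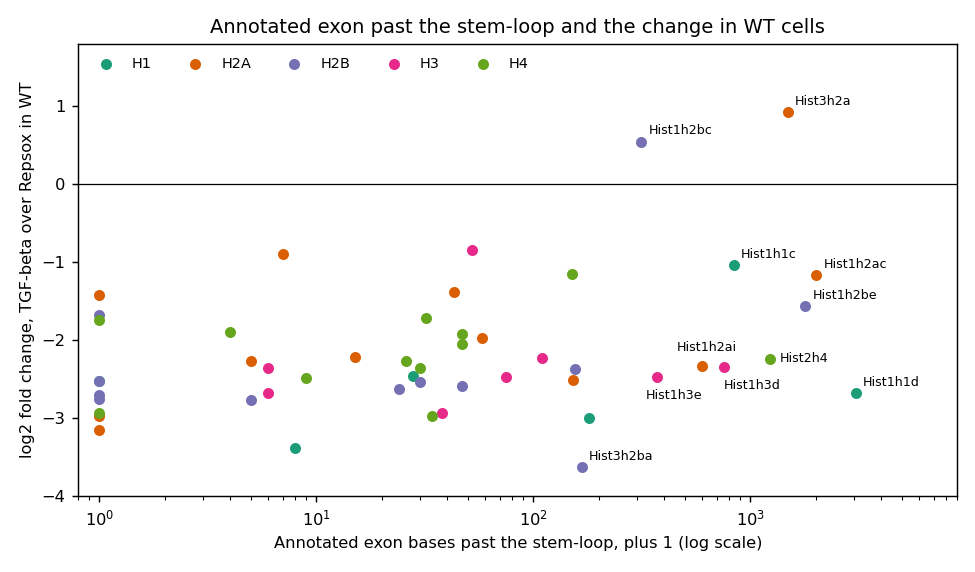
Log2 fold change of TGF-beta over Repsox in WT cells against the annotated exon bases past the stem-loop plus 1 (log axis), for the 50 tested members with a stem-loop match, coloured by class. Hist3h2a and Hist1h2bc, the 2 members above 0, have 1487 and 313 such bases, while Hist1h1d with 3050 bases stands at -2.68 among the other members.

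In K36M cells the same comparison gave modest differences in the other direction. Of 57 members 34 were higher and 0 lower under TGF-beta than under Repsox, against 24.7% and 23.6% of all genes, with a median log2 fold change of 0.43 for the members and 0.01 for all genes. At an unadjusted p below 0.05, 1 member was lower by edgeR, Hist2h2ab, and DESeq2 called 0 lower after adjustment. The count of higher members was 9 of 13 for H4, 7 of 14 for H2A, 7 of 14 for H2B, 7 of 10 for H3 and 4 of 6 for H1. Hist1h1e was 1.68-fold higher (log2 0.75 ± 0.07, adjusted p = 1.43e-08), and Hist3h2ba, the 1 called member that differed at least 2-fold, was 2.59-fold higher, at 25.2 and 27.1 CPM under TGF-beta against 9.88 and 10.3 CPM under Repsox. The libraries did not overlap in 45 of 57 members and in 75.1% of all genes, and 27 to 38 members were higher when single libraries were left out.

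The difference between the 2 genotypes in their response was tested by the interaction, the log2 fold change of TGF-beta over Repsox in K36M minus that in WT. It was higher than 0 for 50 of 57 members and lower for 0, also at an unadjusted p below 0.05 and with DESeq2, against 28.5% and 22.6% of all genes, with a median of 2.83 for the members and 0.09 for all genes. For Hist1h1e it was 3.21 ± 0.11 (adjusted p = 5.14e-16) and for Hist1h4d 2.83 ± 0.12. The 7 members not called were Hist1h2al, Hist1h4m, Hist1h2bc, Hist2h2ab, Hist2h2be, Hist2h3c2 and Hist3h2a. Hist1h2bc gave -0.25 ± 0.12 (adjusted p = 0.0972; called lower, at -0.35, without WT Repsox replicate 2).

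The 2 blocks of chromosome 13 showed like values. For K36M over WT under TGF-beta, 18 of 19 tested members of the lower-coordinate block of chromosome 13 and 28 of 29 of the other block were higher, with medians of 2.73 and 2.77. Of the 5 tested Hist2 genes on chromosome 3, 2 were higher, with a median of 0.34. Over all genes 36.4% were higher in this comparison, so the Hist2 count lay near that share. The order of the members by level changed little between groups. Spearman's correlation of CPM per kilobase of exon over the 57 tested members was 0.99 between the 2 K36M groups, 0.93 between the 2 Repsox groups, 0.92 between the 2 WT groups and 0.88 between the 2 TGF-beta groups, values that share gene length and the same copies.

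The genes that serve histone messages had a smaller median change than the histone genes. Of 16 genes for processing and decay of histone messages, 8 were called higher in K36M than in WT under TGF-beta and 4 lower, with a median log2 fold change of 0.30. Over all genes 36.4% were higher and 33.9% lower in this comparison, which also holds for the lists that follow. Slbp, which encodes the stem-loop binding protein, had 48.2 and 46.7 CPM in K36M under TGF-beta, 50.9 and 51.2 in K36M under Repsox, 15.8 and 20.7 in WT under TGF-beta, and 49.1 and 46.6 in WT under Repsox. WT under TGF-beta was lowest without overlap, with log2 1.37 ± 0.12 for K36M over WT (adjusted p = 7.47e-10). Zfp473, the mouse counterpart of a human U7 snRNP-associated zinc finger protein, had 24.8 and 24.5 CPM in K36M under TGF-beta, against 1.12 and 1.22 CPM in WT under TGF-beta (log2 4.38 ± 0.20). Zcchc11, a uridylyltransferase, gave 1.28 ± 0.09, and Eri1, an exonuclease that trims the histone stem-loop, 0.10 ± 0.12 (adjusted p = 0.494; called higher, at 0.30, when libraries were scaled by total counts).

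Of 10 genes of the cell cycle control of histone transcription, under TGF-beta K36M cells had 7 higher and 1 lower (median 0.47). Npat stood at 71.9 and 74.1 CPM in K36M under TGF-beta, against 55.1 and 62.8 CPM in WT under TGF-beta (log2 0.31 ± 0.09, adjusted p = 0.00658, and log2 0.21 without WT TGF-beta replicate 1). Under Repsox it was also higher in K36M, by 0.81 ± 0.09. For TGF-beta over Repsox, Npat gave log2 -0.15 ± 0.09 in WT (adjusted p = 0.168), and was called lower, at -0.36, when libraries were scaled by total counts. In K36M it was lower under TGF-beta, by log2 -0.66 ± 0.09 (adjusted p = 2.59e-06). Of the 10 genes, 8 were lower and 0 higher under TGF-beta in WT (median -0.74), against 33.4% and 29.0% of all genes. In K36M 7 were lower and 1 higher (median -0.36), against 23.6% and 24.7%. For K36M over WT under TGF-beta, Ccna2, the S-phase and G2 cyclin, gave 3.05 ± 0.10, Cdk2 1.34 ± 0.10 and Cdc25a 0.78 ± 0.09. The cyclin E gene Ccne1 was not called there, at 0.06 ± 0.10 (adjusted p = 0.567). Ccne2, also a cyclin E gene, had 53 and 79 counts in K36M under TGF-beta, against 83 and 136 in WT under TGF-beta. Of 21 histone chaperone genes 16 were higher and 3 lower (median 0.69), among them Nasp, an H3 and H4 chaperone, with log2 2.63 ± 0.09, Hat1, the acetyltransferase of new H4, with 3.21 ± 0.12, and Hjurp, the chaperone of the centromeric variant, with 2.63 ± 0.08.

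The histone variants, made outside S phase too, were a mixed group. Of 11 tested, under TGF-beta K36M cells had 9 higher and 1 lower (median 1.07). H2afx, which carries the stem-loop letters, had 222 and 209 CPM in K36M under TGF-beta, 246 and 236 in K36M under Repsox, 47.8 and 43.6 in WT under TGF-beta, and 234 and 208 in WT under Repsox, an order like that of the members (log2 2.24 ± 0.09). Cenpa, the centromeric H3, gave 2.90 ± 0.10. The H3.3 gene H3f3b gave 0.54 ± 0.07, H3f3a -0.16 ± 0.08 (adjusted p = 0.0850; called lower, at -0.18, with RLE scaling), the H2A.Z gene H2afz 0.27 ± 0.08 (adjusted p = 0.00453; 0.0823 without K36M TGF-beta replicate 1) and the linker variant H1f0 1.07 ± 0.15.

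H2afz did not follow the members between genotypes under Repsox. It had 124 and 113 CPM in K36M under TGF-beta, 99.0 and 104 in K36M under Repsox, 98.0 and 98.1 in WT under TGF-beta, and 237 and 243 in WT under Repsox. The WT Repsox libraries stood above the other 6, with log2 -1.25 ± 0.08 for K36M over WT under Repsox (adjusted p = 7.26e-12).

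Genes of DNA replication and mitosis changed in the direction of most histone genes in the pair of comparisons that follow. In K36M over WT under TGF-beta, 30 of 32 replication genes were higher and Fen1 and Rfc3 not called (median 1.83), and all 22 mitosis genes were higher (median 3.03). In WT, TGF-beta against Repsox, 29 of 32 replication genes and 22 of 22 mitosis genes were lower (medians -1.66 and -2.40), against 33.4% of all genes. Uhrf1 and Mcm5, a factor of maintenance DNA methylation and a subunit of the replicative helicase, gave log2 3.11 ± 0.10 and 2.46 ± 0.09 in the first comparison, and the mitosis genes Cenpf, Top2a and Mki67 4.13 ± 0.08, 3.40 ± 0.07 and 3.08 ± 0.07. In K36M, TGF-beta against Repsox, 24.7% of all genes were higher and 23.6% lower. Of the 32 replication genes, 2 were higher and 5 lower there (median -0.06). Among the 22 mitosis genes 11 were higher and the others not called (median 0.20), and 34 of the 57 histone genes were higher (median 0.43). The part of the cell cycle in the histone differences was not tested.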

How the data were processed

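The data were 1 table of read counts per gene for 26930 genes in 8 libraries, deposited by the authors as raw counts without normalization. The mm9 build, edgeR, HTSeq 0.11.2 and STAR 2.5.0 are named per the submitters' processing notes, and per the labels' protocols total RNA was depleted of ribosomal RNA. The annotation, strand setting, treatment of reads with several matches and read length are not given in the sources used here. Without a stated strand setting, reads of overlapping genes on opposite strands cannot be told apart, and exons of 8 members overlap another gene.

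Libraries were grouped by the genotype and agent in their labels. Counts of all genes were fitted with edgeR 4.0.16 in R 4.3.3 (TMM scaling, filterByExpr, 4 group means, quasi-likelihood F-tests, 4 residual degrees of freedom, common biological coefficient of variation 0.0702), and p-values were adjusted by Benjamini-Hochberg over 15789 genes. With 2 libraries a group the spread is estimated mainly across genes. The fit was tested on simulated data with known fold changes. Alternatives were RLE scaling, total counts, TMM without the members, no filter, a filter of 1 CPM in 4 libraries, DESeq2 1.42.0, a replicate block and each library left out. Same-numbered libraries of different groups did not deviate together (correlations -0.0202 to 0.0315), so the numbers were not taken as pairs. Intervals and limits for 0 counts (3 counts over a group) cover counting error only.

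Sequences on mm9 were read from the genome with GENCODE vM1, and promoter windows are RefSeq's on GRCm38.p6, with 64 of 65 members matched to 1 RefSeq gene by symbol or synonym. Hist1h2bq, Hist2h2aa1, Hist2h2aa2 and Hist2h3b are annotated with a like symbol and were not analysed here. The members, gene lists and tests were chosen with earlier results of these data known. Named members were all H1 genes, the 4 members of highest mean CPM in each other class, those called against the direction of their class (at most 5, otherwise the 3 of smallest adjusted p), and Hist1h1e and Hist1h4m. From each list the 3 called genes of smallest adjusted p for K36M over WT under TGF-beta were named, with Slbp, Npat, Eri1, H2afx, H2afz, H3f3a, H3f3b and H1f0. Other genes named were chosen after their values were seen.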

Additional observations from a re-analysis of the deposited data

Results flagged for a closer look

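The response to TGF-beta against Repsox differed between K36M and WT cells by the interaction test for 50 members, with a higher log2 fold change in K36M, and for 0 members with a lower one (edgeR, adjusted p below 0.05), against 28.5% and 22.6% of all genes. Among the named members, the interaction, the log2 fold change of TGF-beta over Repsox in K36M minus that in WT, was 1.57 for Hist1h1c, 3.60 for Hist1h1a, 3.08 for Hist1h1b, 3.16 for Hist1h1d, 3.21 for Hist1h1e and 2.98 for the testis gene Hist1h1t. For H2A it was 3.52 for Hist1h2ak, 2.91 for Hist1h2ae, 1.8 for Hist1h2ac and 1.59 for Hist1h2ab. For H2B it was 3.12 for Hist1h2bm, 2.47 for Hist1h2bg and 1.88 for Hist1h2bb. For H3 it was 3.37 for Hist1h3g, 2.96 for Hist1h3e, 2.90 for Hist1h3c, 2.79 for Hist1h3f and 2.77 for Hist1h3d. For H4 it was 3.48 for Hist1h4f, 2.95 for Hist1h4c, 2.83 for Hist1h4d, 2.63 for Hist1h4h, 1.82 for Hist4h4 and 1.8 for Hist1h4n.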

How the results depend on the processing

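No called value of a count, sum or named gene changed direction under any alternative that was run. Leaving out each library in turn, with a lone library assumed to vary like the other groups, gave 50 to 50 members higher and 2 to 3 lower for K36M over WT under TGF-beta, and 5 to 10 higher and 13 to 19 lower under Repsox. It gave 1 to 2 higher and 52 to 52 lower for TGF-beta over Repsox in WT, 27 to 38 higher and 0 to 0 lower in K36M, and 49 to 50 higher and 0 to 1 lower for the interaction. The 1 lower interaction was Hist1h2bc without WT Repsox replicate 2. The 5 higher members under Repsox came without WT Repsox replicate 1 and without K36M Repsox replicate 1.

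Of the alternatives chosen after seeing the data, leaving out Hist1h4m, Hist1h4n and Hist1h2al left, by construction, 1 member lower for K36M over WT under TGF-beta. The 33 tested members with at least 50% unique 50-base stretches gave 30 higher and 0 lower there, 5 higher and 7 lower under Repsox, 1 higher and 30 lower for TGF-beta over Repsox in WT, and 21 and 30 higher for TGF-beta over Repsox in K36M and the interaction, with fewer genes counted by construction. With the replicate number as a block, K36M over WT gave 50 higher and 3 lower under TGF-beta and 8 and 17 under Repsox, TGF-beta over Repsox gave 2 higher and 52 lower in WT and 35 and 0 in K36M, and the interaction gave 50 and 0. The pairing check showed no pairs, so the block was not used elsewhere. DESeq2 gave 7 higher and 11 lower for K36M over WT under Repsox. Scaling by total counts moved the median of all genes to 0.25, against 0.05 with TMM, for K36M over WT under TGF-beta and to -0.28, against -0.07, for TGF-beta over Repsox in WT. Hist3h2a and Hist2h3c2, both under 10 CPM in every library, lost calls when single libraries were left out. Members at higher levels did too for K36M over WT under Repsox. Among them were Hist1h4h, Hist1h3c and Hist1h2bc, with means of 133, 82.4 and 84.1 CPM over the 8 libraries. Hist1h3c also lost that call when scaled by total counts, without the filter and with DESeq2.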
